A study of Homo sapiens with 30 samples.

Results

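The HSP90 chaperone machine and the mitochondrial HSP60 chaperonin are described here by 10 genes of the 26801 in the table: HSP90AA1, HSP90AB1, AHSA1, STIP1, CHORDC1, FKBP4, PTGES3, CDC37, HSPD1 and HSPE1. They were taken by symbol, each matched 1 row, and all 10 passed the filter on low values. Polyadenylated RNA was sequenced from A549, an established human lung adenocarcinoma line, in 30 libraries forming 10 groups of 3. There were 5 backgrounds, each with 3 libraries under magnetic exposure (EX, labelled 2 H) and 3 without (NE). KOA is a knockout of RSRP1, iR_KOA carries iR as well, and iR_KOA_D3 carries both iR and D3, while iR_WTA and iR_WTA_D3 are their RSRP1 wild-type counterparts. The sources used here do not give the meaning of iR and D3, which are kept as names, and every wild-type library carries iR. They also do not give whether a knockout is 1 clone, or the field strength.

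HSP90 is an ATP-driven clamp in the cytosol that folds and holds a wide set of client proteins, among them kinases, steroid receptors and the heat shock factor HSF1. Co-chaperones steer its cycle by delivering clients, by setting the rate of ATP use and by stabilising the closed clamp. HSP60, encoded by HSPD1, forms a barrel in the mitochondrial matrix that folds imported proteins under a lid made of HSP10, encoded by HSPE1. Many of these genes are induced by heat and other stress that unfolds proteins, through HSF1 binding to repeats of the letters GAA and TTC called heat shock elements.

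Between 34620445 and 38939339 fragments lay behind each library, and the members had from 1006 fragments (HSPE1) to 164438 (HSP90AA1) in a library, so counting error was small for all of them. RSRP1, the targeted gene, was 2.09 to 7.95 FPKM (fragments scaled to transcript length and to the library total) in the 18 libraries labelled knockout and 37.4 to 63.4 FPKM in the 12 labelled wild type. The A549 markers KRT8 (892 to 1395 FPKM) and ALDH1A1 (2743 to 4916 FPKM) were high in all libraries, while EPCAM was 0.402 to 1.85 FPKM. CDKN2A, PTPRC, PECAM1 and COL3A1 stayed under 0.05 FPKM. Of the genes listed as low in A549 or of other cell types, 3 more had values, and CD3E had no row in the deposited values. SFTPC reached 0.292 FPKM, the endothelial gene CDH5 1.295 FPKM and the fibroblast collagen COL1A1 3.71 FPKM. Across genes, libraries of 1 group correlated at 0.9899 to 0.998.

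The members differ in the heat shock element letters near their starts. RefSeq promoter windows (GRCh38.p14, 250 bases before to 50 bases after a start) were matched for 9 of the 10 members, all but FKBP4. They were searched on both strands for a pair of units, GAANNTTC or TTCNNGAA, and for 3 units in a row, GAANNTTCNNGAA or TTCNNGAANNTTC, which contain pairs by construction. Of 35116 windows, 13.5% held a pair and 0.49% held 3 units in a row. CHORDC1 held 6 overlapping or separate pairs, and its window was the only 1 of all windows with that many. HSP90AB1 held 4 in 1 of its 3 windows, HSP90AA1 held 3 in 1 of 2 and HSPD1 held 3 in 1 of 2, and each of these 4 genes had at least 1 run of 3 units. STIP1 held 1 pair in 1 of 2 windows, just after its second listed start. The windows of AHSA1, PTGES3, CDC37 and HSPE1 held none. Stretches with matches are shown because the members differ in them, with the matched letters in capitals. The stretch of CHORDC1 holds 4 of its 6 pairs, whose full set spans -205 to -16, and each sequence is written 5′ to 3′ on the strand of the gene and with distances in bases.
CHORDC1 (chr11:90223084-90223112, minus strand, -63 to -35 from the start): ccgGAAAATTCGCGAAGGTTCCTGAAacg
HSP90AB1 (chr6:44247748-44247865, plus strand, -195 to -78 from a start): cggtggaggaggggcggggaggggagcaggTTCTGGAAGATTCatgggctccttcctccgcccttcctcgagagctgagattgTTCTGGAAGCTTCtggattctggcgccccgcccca
HSP90AA1 (chr14:102087104-102087133, minus strand, -89 to -60 from a start): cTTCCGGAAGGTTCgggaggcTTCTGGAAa
HSPD1 (chr2:197500062-197500090, minus strand, -250 to -222 from a start): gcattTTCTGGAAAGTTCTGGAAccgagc
STIP1 (chr11:64186173-64186202, plus strand, 2 to 31 from a start): cttctagtaggTTCCAGAAggcggcgcgtg
The HSPD1 match lies inside the HSPD1 gene, 228 bases before its second listed start and 294 bases from the start of HSPE1, which runs the opposite way. The 2 genes are 104 bases apart. The matches of HSP90AA1, HSP90AB1 and STIP1 also lie inside their genes, near a later listed start, while those of CHORDC1 lie before the gene. All matched bases of CHORDC1, HSP90AA1, HSPD1 and STIP1 fall in an untranslated region annotated by GENCODE, and none of those of HSP90AB1 do. A match is a description of letters, not a measured site of binding.

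With exposure, HSP90AA1, HSP90AB1, AHSA1, STIP1, CHORDC1, FKBP4 and HSPD1 rose in all 5 backgrounds, PTGES3 rose in 4, HSPE1 in 2 and CDC37 in none. By limma on log2(FPKM + 1) with Benjamini-Hochberg adjustment over 12086 genes, 9 of 10 members rose in KOA, where 18.8% of all tested genes rose, and 9 of 10 rose in iR_KOA_D3 (17.3% of all genes). In iR_KOA 8 rose (13.1%), in iR_WTA_D3 8 rose (15.3%) and in iR_WTA 7 rose (11.4%). No member fell at that threshold, where 22.7% (KOA), 22.3% (iR_KOA), 27.8% (iR_KOA_D3), 17.2% (iR_WTA) and 26.5% (iR_WTA_D3) of all genes fell. All 3 exposed libraries were above all 3 unexposed ones for 9 members in KOA (25.5% of all genes), 8 in iR_KOA (15.8%), 9 in iR_KOA_D3 (22.6%), 7 in iR_WTA (16%) and 9 in iR_WTA_D3 (17.3%). The median difference over the 10 members was 0.73 in KOA, 0.49 in iR_KOA, 0.63 in iR_KOA_D3, 0.43 in iR_WTA and 0.58 in iR_WTA_D3, on the log2(FPKM + 1) scale, while the median over all tested genes lay between -0.05 and -0.02. COL1A1 also rose with exposure, by 1.12 in KOA, 0.59 in iR_WTA and 0.54 in iR_WTA_D3, and CDH5 fell by 0.19 in KOA, 0.23 in iR_KOA and 0.33 in iR_KOA_D3. Their part in the members' values was not tested. In these bulk libraries, fewer cells of a kind and less RNA per cell cannot be told apart.

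**Figure D1:**
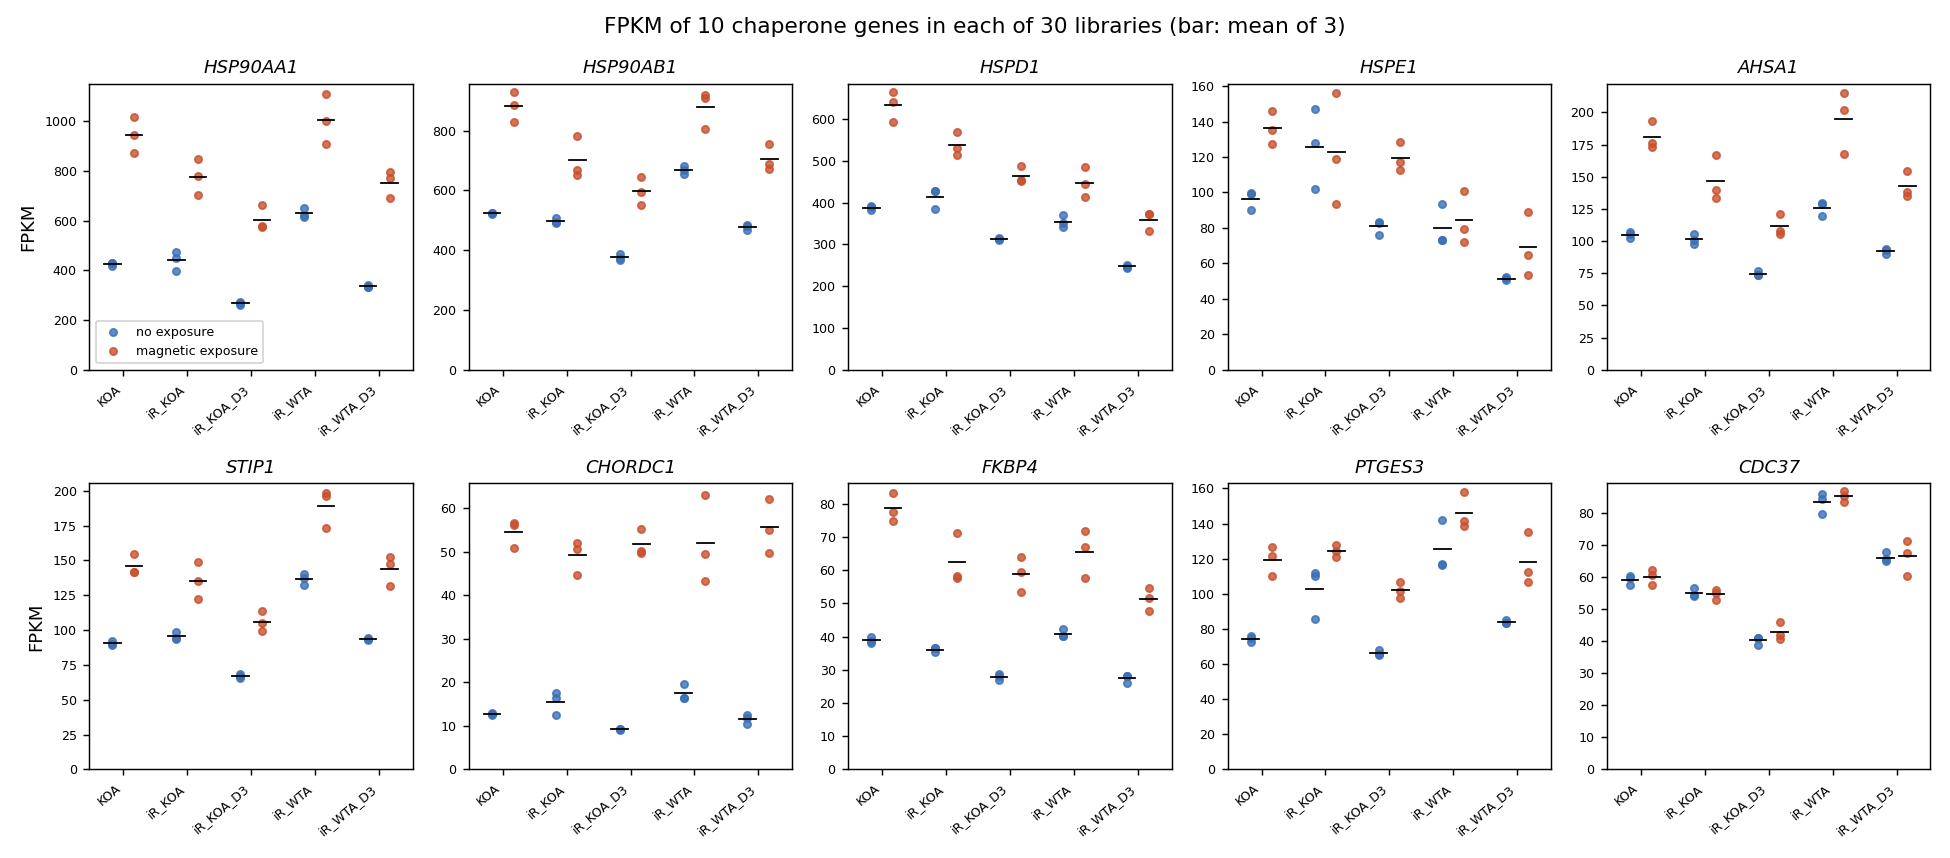
FPKM of the 10 members in each library, with no exposure in blue and with magnetic exposure in orange, by background; black bars are means of 3. Exposed HSP90AA1 and CHORDC1 libraries lie above all unexposed libraries of their background, while CDC37 points overlap.

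HSP90AA1, the stress-inducible cytosolic isoform (chromosome 14, 102080742 to 102139749 in GRCh38.p14), was the most abundant member in exposed wild-type libraries. In KOA it was 431, 431 and 418 FPKM without exposure and 1018, 943 and 873 FPKM with it. In iR_KOA it was 473, 451 and 398 FPKM without and 846, 781 and 703 FPKM with exposure. In both, every exposed library was above every unexposed one. In iR_KOA_D3 the values were 267, 259.7 and 274 FPKM without and 662, 578 and 574 FPKM with exposure. In iR_WTA they were 614, 652 and 623 FPKM and 1109, 1002 and 909 FPKM, and in iR_WTA_D3 339.6, 334 and 332 FPKM and 797, 689.9 and 772 FPKM. The groups were again separate in all 3 backgrounds. The rise was 1.14 (SE 0.075, adjusted p = 5.61e-12) in KOA and smallest in iR_WTA, at 0.67 (SE 0.075, adjusted p = 2.55e-07), on the log2(FPKM + 1) scale. The other 3 backgrounds gave 0.82 in iR_KOA, 1.17 in iR_KOA_D3 and 1.16 in iR_WTA_D3. Ordered by mean level, the 10 groups ran from exposed iR_WTA (1007 FPKM) to unexposed iR_KOA_D3 (267 FPKM). Neighbours in that order whose libraries overlapped were exposed iR_WTA and exposed KOA, exposed iR_KOA and exposed iR_WTA_D3, unexposed iR_WTA and exposed iR_KOA_D3, and unexposed iR_KOA and unexposed KOA.

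HSP90AB1 is the constitutive cytosolic isoform (chromosome 6, 44246194 to 44253883) and had smaller differences than HSP90AA1 in all 5 backgrounds. Its means went from 524 ± 1.498 to 880.5 ± 50.3 FPKM in KOA (SD, n = 3), a difference of 0.75 (SE 0.062, adjusted p = 5.3e-10). In iR_WTA they went from 667 ± 13.8 to 877 ± 63.7 FPKM, a difference of 0.39 (SE 0.062, adjusted p = 3.58e-05). The difference was 0.49 in iR_KOA, 0.66 in iR_KOA_D3 and 0.56 in iR_WTA_D3, and exposed and unexposed libraries were separate in each. The balance of the 2 isoforms was also compared. The ratio of HSP90AA1 to HSP90AB1 FPKM, which no scaling of a library can move, was 0.814 ± 0.017 without and 1.07 ± 0.022 with exposure in KOA (SD, n = 3). In iR_KOA_D3 it was 0.710 ± 0.033 and 1.01 ± 0.035, and in iR_WTA_D3 0.702 ± 0.012 and 1.07 ± 0.075. The smallest shift was in iR_WTA, from 0.944 ± 0.047 to 1.15 ± 0.054, and iR_KOA went from 0.886 ± 0.090 to 1.11 ± 0.052. In all 5 backgrounds the 3 exposed ratios were above the 3 unexposed ones. The exact two-sided permutation p was 0.1 in each, the smallest that 3 against 3 can give, and 0.167 after Benjamini-Hochberg adjustment over the 10 ratio comparisons, so this test cannot pass 0.05 with 3 libraries a group.

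CHORDC1, a zinc-binding co-chaperone of HSP90 (chromosome 11, 90200429 to 90223049), had the largest rise of the 10 members in every background. In KOA it was 12.9, 12.8 and 12.5 FPKM without exposure and 56.1, 56.7 and 50.8 FPKM with it. In iR_KOA_D3 it was 9.20, 8.99 and 9.36 FPKM and 55.2, 50.1 and 49.7 FPKM. In iR_WTA it was 16.4, 19.6 and 16.4 FPKM and 63.0, 49.5 and 43.3 FPKM. No exposed library was under 43.3 FPKM and no unexposed library was over 19.6 FPKM, in any background. Exposed iR_KOA had 52.0, 50.7 and 44.7 FPKM against 17.5, 16.3 and 12.5 FPKM unexposed, and exposed iR_WTA_D3 had 55.0, 49.7 and 62.0 FPKM against 12.5, 10.5 and 11.8 FPKM. The ratio of group means, exposed over unexposed, was 4.28 in KOA, 3.18 in iR_KOA, 5.63 in iR_KOA_D3, 2.97 in iR_WTA and 4.80 in iR_WTA_D3. Among the 12086 tested genes the rise ranked 6 in iR_KOA_D3, 7 in iR_WTA_D3, 11 in iR_KOA, 12 in iR_WTA and 15 in KOA. Its differences were 2.01 (SE 0.11, adjusted p = 1.84e-13) in KOA and 2.37 (SE 0.11, adjusted p = 1.35e-14) in iR_KOA_D3. The 5 exposed groups lay close together, with means from 49.1 ± 3.90 to 55.6 ± 6.17 FPKM and overlapping libraries between neighbours. The 5 unexposed groups spread from 9.18 ± 0.187 to 17.5 ± 1.88 FPKM.

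FKBP4, AHSA1 and STIP1, 3 further co-chaperones, rose in all 5 backgrounds. FKBP4 (chromosome 12, 2794970 to 2805423), a peptidyl-prolyl isomerase of steroid receptor complexes, was 38.9 ± 0.936 FPKM without and 78.6 ± 4.30 FPKM with exposure in KOA, a difference of 1.00 (SE 0.075, adjusted p = 6.99e-11). In the other backgrounds its differences were 0.77 (iR_KOA), 1.04 (iR_KOA_D3), 0.66 (iR_WTA) and 0.88 (iR_WTA_D3). AHSA1, which speeds up the ATPase of HSP90, rose by 0.78 in KOA and by 0.52 to 0.62 elsewhere. STIP1, the adaptor that links HSP70 to HSP90, rose by 0.46 (iR_WTA) to 0.68 (KOA). Both had separate exposed and unexposed libraries in all 5 backgrounds, as FKBP4 did.

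PTGES3, known as p23, holds the ATP-bound clamp closed. It rose by 0.67 (SE 0.087, adjusted p = 8.2e-07) in KOA, by 0.61 in iR_KOA_D3 and by 0.48 in iR_WTA_D3. In iR_KOA the unexposed libraries were 112, 109.9 and 85.6 FPKM and the exposed ones 121, 128 and 125 FPKM, a rise of 0.29 (SE 0.087, adjusted p = 0.0123). The last of those unexposed libraries is low, and without it the difference was 0.16 (limma adjusted p = 0.136); fitted on the 6 libraries alone it was 0.29 (adjusted p = 0.0774). In iR_WTA the unexposed libraries were 117, 142 and 117 FPKM and the exposed ones 158, 139 and 142 FPKM. These overlap, and the difference of 0.22 (SE 0.087, adjusted p = 0.0557) did not pass; without unexposed replicate 2 it was 0.32 (adjusted p = 0.0108) and with median-of-ratios scaling 0.25 (adjusted p = 0.0336).

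CDC37, which brings protein kinases to HSP90, stood apart. In KOA it was 59.7, 60.5 and 57.8 FPKM without and 62.4, 57.6 and 60.8 FPKM with exposure. In iR_WTA it was 86.0, 80.0 and 84.4 FPKM and 85.3, 87.0 and 83.6 FPKM. Exposed and unexposed libraries overlapped. The difference was 0.02 in KOA with a 95% interval of -0.08 to 0.12, -0.01 (-0.11 to 0.09) in iR_KOA and 0.09 (-0.02 to 0.19) in iR_KOA_D3. In iR_WTA it was 0.03 (-0.07 to 0.13) and in iR_WTA_D3 0.01 (-0.10 to 0.11). The sign in KOA, iR_KOA and iR_WTA_D3 changed when 1 library was left out.

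**Figure D2:**
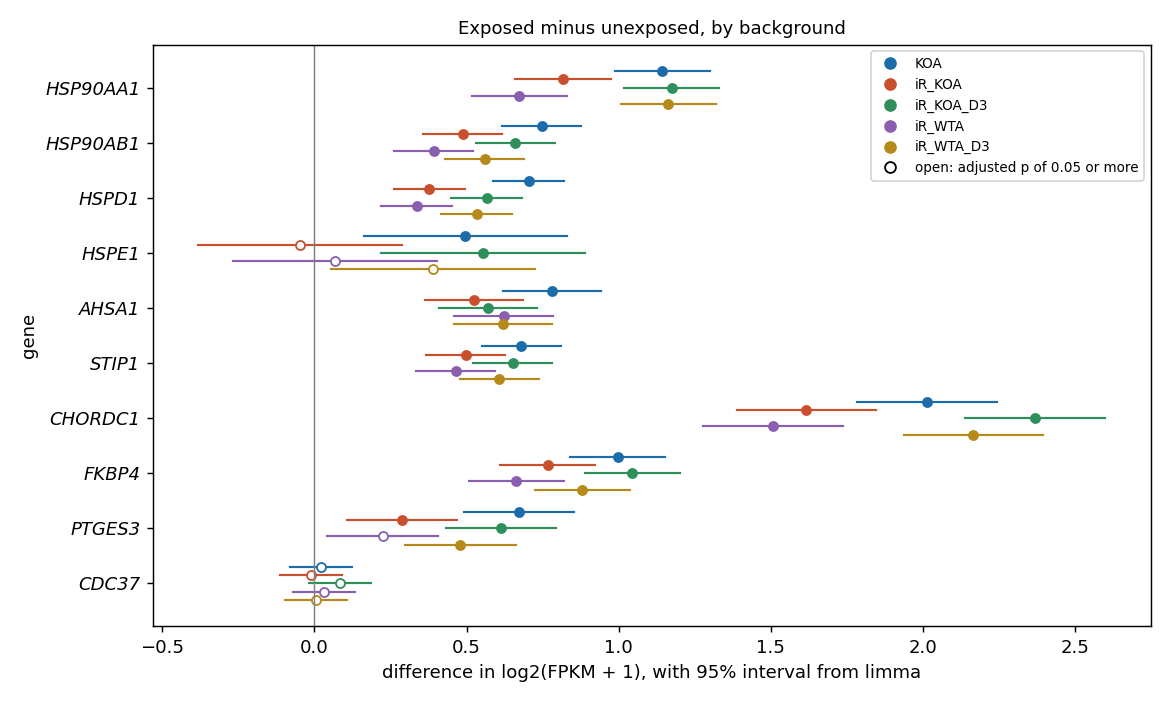
Exposed minus unexposed difference in log2(FPKM + 1) for each member in the 5 backgrounds, with 95% intervals from limma; filled points passed the adjusted threshold of 0.05 and open points did not. CHORDC1 lies farthest right, at 1.51 to 2.37, and CDC37 lies around 0.

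In the mitochondrion, HSPD1 rose in all 5 backgrounds and HSPE1 passed the test in 2 of them. HSPD1 (chromosome 2, 197486584 to 197500274) was 392, 389 and 382 FPKM without and 664, 642 and 593 FPKM with exposure in KOA. In iR_WTA it was 350.3, 369 and 342 FPKM and 485, 444 and 414 FPKM. All exposed libraries were above all unexposed ones, in these and in the other 3 backgrounds. The rise was 0.70 (SE 0.056, adjusted p = 2.12e-10) in KOA, 0.38 in iR_KOA, 0.57 in iR_KOA_D3, 0.34 (SE 0.056, adjusted p = 6.08e-05) in iR_WTA and 0.53 in iR_WTA_D3. HSPE1 (chromosome 2, 197500379 to 197503449), the lid, was 99.1, 99.5 and 90.0 FPKM and 128, 135 and 146 FPKM in KOA, a rise of 0.50 (SE 0.16, adjusted p = 0.0149). In iR_KOA_D3 it was 83.5, 76.2 and 82.7 FPKM and 128, 112 and 117 FPKM, a rise of 0.55 (SE 0.16, adjusted p = 0.00641). The groups were separate in both, yet in KOA the limma adjusted p was 0.055 without exposed replicate 3 and 0.0585 without unexposed replicate 3, with differences of 0.45 and 0.45.

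HSPE1 had the largest standard error of the 10 members, 0.16 for each exposure difference. In iR_KOA the unexposed libraries were 147, 128 and 102 FPKM and the exposed ones 119, 93.4 and 156 FPKM, and the difference was -0.05 with a 95% interval of -0.38 to 0.29. In iR_WTA the difference was 0.07 (-0.27 to 0.40). Both intervals span 0. In iR_WTA_D3 the unexposed libraries were 50.4, 51.6 and 52.2 FPKM and the exposed ones 65.0, 53.6 and 89.0 FPKM. They were separate, and the difference of 0.39 (SE 0.16, adjusted p = 0.0532) just missed the threshold; it was 0.44 (adjusted p = 0.0252) with median-of-ratios scaling, 0.39 (adjusted p = 0.0478) with quantile normalization and 0.56 (adjusted p = 0.00907) without exposed replicate 2. The ratio of HSPD1 to HSPE1 FPKM was 3.34 ± 0.43 in unexposed iR_KOA at its lowest and 5.37 ± 0.50 in exposed iR_WTA at its highest. Exposed and unexposed ratios overlapped in all backgrounds but iR_WTA (exact two-sided permutation p of 0.1 to 0.8, n = 3 per group). The read-through gene HSPE1-MOB4 begins at the same base as HSPE1, and the deposited values hold no row under that name. They also hold no row named as a member's symbol followed by P and a number. Processed copies of HSP90AA1, HSP90AB1, HSPD1 and HSPE1 exist in the genome, so reads of these 4 genes could have been split with such copies.

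**Figure D3:**
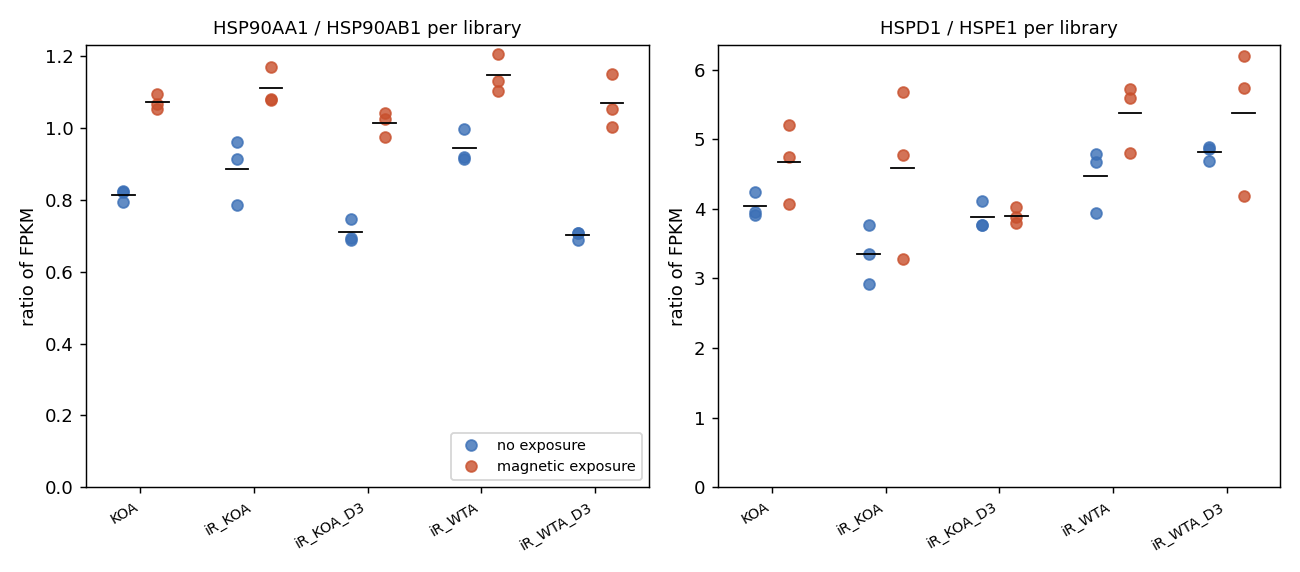
Ratio of FPKM within each library, HSP90AA1 over HSP90AB1 on the left and HSPD1 over HSPE1 on the right, by background, with no exposure in blue and exposure in orange; black bars are means of 3. On the left the exposed ratios lie above the unexposed ones in each background, and on the right most groups overlap.

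In the RSRP1 knockout most cytosolic members were lower, and HSPD1 and HSPE1 were higher. Against unexposed iR_WTA, unexposed iR_KOA had 7 members lower, where 37.4% of all tested genes were lower, and 2 higher, where 27.9% were higher (limma, Benjamini-Hochberg over all genes). With D3 the counts were again 7 lower (44.3% of all genes) and 2 higher (24.8%). The 2 that were higher in both were the mitochondrial pair. HSPE1 differed by 0.64 (SE 0.16, adjusted p = 0.00117) without D3 and 0.64 (SE 0.16, adjusted p = 0.00102) with it, and HSPD1 by 0.22 (SE 0.056, adjusted p = 0.0011) and 0.34 (SE 0.056, adjusted p = 7.63e-06). Among the cytosolic members CDC37 differed most, by -0.59 (SE 0.049, adjusted p = 7.43e-11) and -0.70 (SE 0.049, adjusted p = 1.89e-12). Its wild-type libraries were 86.0, 80.0 and 84.4 FPKM and its knockout libraries 54.5, 54.2 and 56.7 FPKM, with no overlap, and with D3 they were 67.9, 65.0 and 65.8 FPKM and 41.1, 41.0 and 38.9 FPKM.

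The 2 HSP90 isoforms were lower in the knockout too. HSP90AA1 differed by -0.52 (adjusted p = 1.37e-06) without D3 and -0.33 with D3, and HSP90AB1 by -0.42 and -0.34. STIP1 differed by -0.51 and -0.48, AHSA1 by -0.31 and -0.30, and PTGES3 by -0.29 and -0.34. The PTGES3 value without D3 lost its call without either of 2 libraries: the limma adjusted p was 0.0772 (difference -0.17) without iR_KOA unexposed replicate 3 and 0.0587 (-0.20) without iR_WTA unexposed replicate 2. FKBP4 was -0.17 (SE 0.075, adjusted p = 0.0442) without D3, a call that any of the 6 libraries decides (adjusted p of 0.0599 to 0.132 with 1 left out) and that no filter, median-of-ratios scaling and quantile normalization also end (0.0886, 0.0968 and 0.134), and 0.03 with D3, which did not pass. CHORDC1 was -0.17 without D3, which did not pass, and -0.30 (SE 0.11, adjusted p = 0.0173) with D3; without iR_WTA_D3 unexposed replicate 1 the latter was -0.25 (adjusted p = 0.0752), with median-of-ratios scaling -0.21 (0.0992) and with quantile normalization -0.23 (0.0677). All 11 A549 markers were also higher in the knockout without D3 (27.9% of all genes) and 9 of 11 with D3 (24.8%). Their summed levels were 7715 to 7967 FPKM in unexposed iR_WTA and 10990 to 11090 FPKM in unexposed iR_KOA. CDH5 was higher by 0.60 without and 1.16 with D3, and COL1A1 differed by -0.48 and -0.71. The part of these shifts in the members' values was not tested.

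Without exposure, libraries with D3 had less of every member. All 10 were lower in unexposed iR_WTA_D3 than in iR_WTA, where 26.3% of all genes were lower, and all 10 were lower in unexposed iR_KOA_D3 than in iR_KOA (34.5%). HSP90AA1 differed most in both, by -0.91 (SE 0.075, adjusted p = 3.57e-10) in wild type and -0.72 (SE 0.075, adjusted p = 1.16e-08) in the knockout. HSPE1 followed in wild type at -0.62, and CHORDC1 in the knockout at -0.68. The smallest differences were -0.33 for CDC37 in wild type and -0.36 for FKBP4 in the knockout. HSP90AB1 differed by -0.48 and -0.40, and the ratio of HSP90AA1 to HSP90AB1 was 0.702 ± 0.012 with D3 against 0.944 ± 0.047 without it in unexposed wild type. Of the A549 markers, 1 of 11 was lower with D3 in wild type (26.3% of all genes) and 5 of 11 in the knockout (34.5%). In the same order 5 and 4 were higher, and the share of all genes that were higher is not given here. The marker medians were 0.09 in wild type and -0.03 in the knockout. Over all tested genes the medians were -0.01 and -0.06.

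The label iR in the knockout went with 1 called member. PTGES3 was 76.2, 74.8 and 72.5 FPKM in unexposed KOA and 112, 109.9 and 85.6 FPKM in unexposed iR_KOA, a difference of 0.45 (SE 0.087, adjusted p = 0.000264), where 18.7% of all genes were higher. The next values were 0.37 for HSPE1 (adjusted p = 0.0732) and 0.25 for CHORDC1 (adjusted p = 0.078). Unexposed iR_KOA replicate 3 was the lowest of its group in HSP90AA1, HSPD1, HSPE1, CHORDC1 and PTGES3 and the highest in the other 5 members, and without it HSPE1 (0.51, limma adjusted p = 0.0207) and CHORDC1 (0.38, adjusted p = 0.00755) passed as well.

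**Figure D4:**
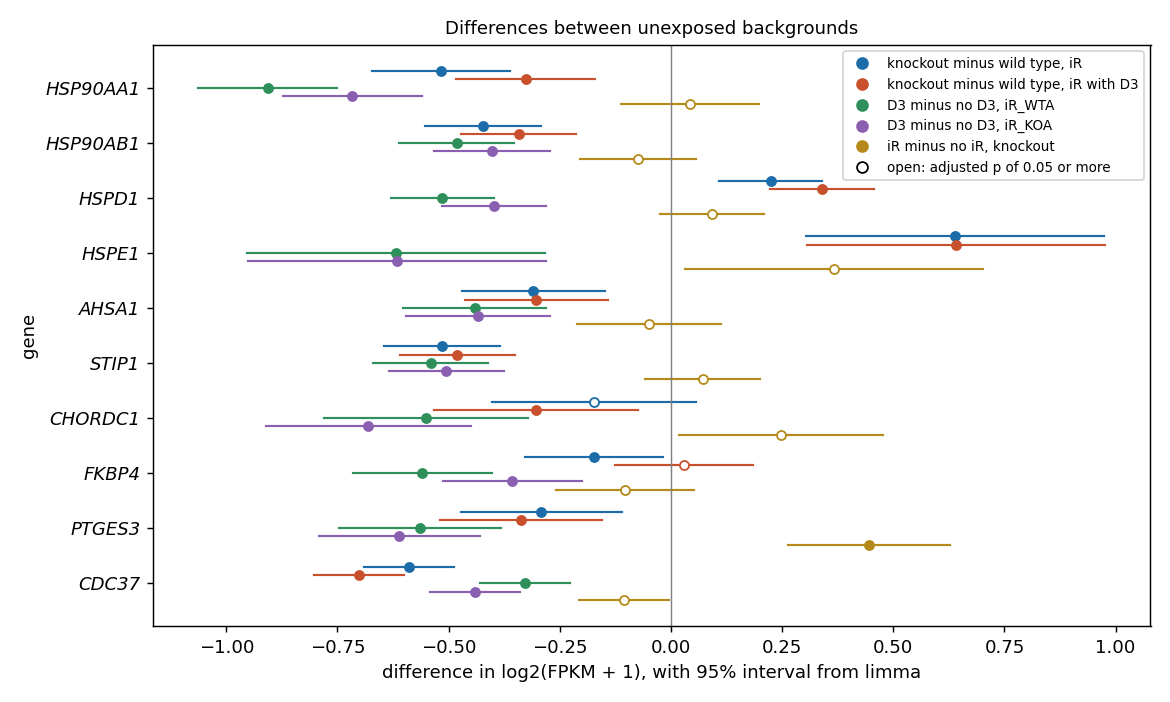
Differences in log2(FPKM + 1) between unexposed backgrounds for each member, with 95% intervals from limma; filled points passed the adjusted threshold of 0.05. HSPD1 and HSPE1 lie right of 0 and CDC37 left of 0 for the knockout, and all 10 members lie left of 0 for D3.

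Whether exposure acted differently between backgrounds was tested with interaction terms of the same fit. Between genotypes no member passed, without D3 (0 of 10, 0.538% of all genes) or with D3 (0 of 10, 2.38%), and none had an unadjusted limma p under 0.05 (9.74% and 14.5% of all genes). The interaction estimates ran from -0.12 to 0.14 without D3 and from -0.05 to 0.20 with D3. For HSP90AA1 without D3 the knockout rise minus the wild-type rise was 0.14 with a 95% interval of -0.08 to 0.36, and for CHORDC1 it was 0.11 (-0.22 to 0.43). The smallest adjusted p was 0.683 without D3 and 0.516 with D3.

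With iR and D3, some of these terms passed for single members. In the knockout the estimates for iR ran from -0.03 (CDC37, 95% interval -0.18 to 0.11) to -0.54 (HSPE1). An unadjusted p under 0.05 was found for 9 members (17.2% of all genes), and 1 passed the adjusted threshold (5.08% of all genes). That 1 was HSPD1 at -0.33 (SE 0.079, adjusted p = 0.0127). With D3 in the knockout the estimates ran from 0.04 to 0.75 and CHORDC1 passed, at 0.75 (SE 0.16, adjusted p = 0.00649), where 4.14% of all genes passed. With the replicate block HSP90AA1 passed as well (0.36, adjusted p = 0.018). With D3 in wild type HSP90AA1 passed at 0.49 (SE 0.11, adjusted p = 0.017) and CHORDC1 at 0.66 (SE 0.16, adjusted p = 0.0282), 2 of 10 against 1.67% of all genes. Of these 4 calls, 3 were lost under at least 1 alternative, and the CHORDC1 call in the knockout was kept under all that were run. In both genotypes the D3 libraries had the lower unexposed levels of these genes. Exposed CHORDC1 with D3 was 55.6 ± 6.17 FPKM in wild type against 51.9 ± 10.0 FPKM without D3, while exposed HSP90AA1 averaged 753 FPKM against 1007 FPKM.

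Other genes of the HSP90 system, 31 further paralogues and co-chaperones of which 29 were tested, were counted as a list. With exposure 13 rose and 5 fell in KOA, 8 and 5 in iR_KOA, 14 and 5 in iR_KOA_D3, 10 and 3 in iR_WTA, and 10 and 6 in iR_WTA_D3. Over all tested genes 18.8% rose and 22.7% fell in KOA, 13.1% and 22.3% in iR_KOA, and 17.3% and 27.8% in iR_KOA_D3. In iR_WTA these shares were 11.4% and 17.2%, and in iR_WTA_D3 15.3% and 26.5%. The list medians were -0.02 to 0.10. PPID, another peptidyl-prolyl isomerase that binds HSP90, rose by 1.07 in KOA and 0.72 in iR_WTA, and CACYBP by 0.88 and 0.46. HSP90B1, the HSP90 of the endoplasmic reticulum, rose by 0.58 in KOA and 0.51 in iR_WTA, and SUGT1, a co-chaperone with a p23-like domain, by 0.59 in KOA. CDC37L1 rose by 0.53 in KOA, 0.32 in iR_KOA, 0.63 in iR_KOA_D3, 0.33 in iR_WTA and 0.75 in iR_WTA_D3. TELO2 and FKBP5, named from the knockout comparison, fell with exposure. TELO2, which with HSP90 assembles large kinases, fell by 0.40 in KOA and by 0.51 in iR_KOA_D3. FKBP5, a relative of FKBP4, went the other way from it and fell by 0.24 in KOA and by 0.30 in iR_WTA_D3. In the knockout comparison 14 of 29 were lower and 4 higher without D3, where 37.4% and 27.9% of all genes were. With D3 18 were lower and 2 higher, where 44.3% and 24.8% of all genes were. STUB1 (-0.62), RUVBL1 (-0.57) and FLCN (0.64) differed most without D3, and FKBP5 (-0.69) and RUVBL1 (-0.67) with D3.

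In each background more genes of the mitochondrial list fell than rose, which was also so over all tested genes. Of all tested genes 22.7% fell and 18.8% rose in KOA, 22.3% and 13.1% in iR_KOA, and 27.8% and 17.3% in iR_KOA_D3. In iR_WTA the shares were 17.2% and 11.4%, and in iR_WTA_D3 26.5% and 15.3%. Of 19 mitochondrial chaperones and proteases, 3 rose and 4 fell in KOA, 0 and 8 in iR_KOA, 3 and 5 in iR_KOA_D3, 0 and 5 in iR_WTA, and 0 and 7 in iR_WTA_D3. CLPX, the unfoldase of the matrix protease ClpXP, fell by 0.55 in KOA, 0.33 in iR_KOA, 0.61 in iR_KOA_D3, 0.39 in iR_WTA and 0.53 in iR_WTA_D3. AFG3L2, an inner-membrane protease, fell by 0.27 in KOA and 0.34 in iR_WTA_D3. GRPEL2, an exchange factor for the matrix HSP70, rose by 0.40 in KOA and 0.34 in iR_KOA_D3. In the knockout without D3, 7 of the 19 were lower (37.4% of all genes) and 4 higher (27.9%), among them PITRM1 (-0.41) and CLPX (0.31).

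Of 22 client kinases, receptors and factors, 9 fell and 3 rose in KOA, 11 and 2 in iR_KOA, 13 and 4 in iR_KOA_D3, 8 and 1 in iR_WTA, and 10 and 2 in iR_WTA_D3, with list medians of -0.16 to -0.05. The medians over all tested genes were -0.05 to -0.02. Of all tested genes 17.2% (iR_WTA) to 27.8% (iR_KOA_D3) fell and 11.4% (iR_WTA) to 18.8% (KOA) rose. CDK9, a kinase of transcription elongation, fell by 0.62 in KOA and 0.32 in iR_WTA. RIPK1, a kinase of death and inflammatory signalling, fell by 0.51 in KOA, and the mitotic kinase PLK1 by 0.44. Among the clients that rose, AHR passed only in KOA, at 0.34. SRC rose by 0.21 in iR_KOA, 0.16 in iR_KOA_D3, 0.27 in iR_WTA and 0.20 in iR_WTA_D3, and did not pass in KOA (0.11). HSF1, in this list and among the 4 heat shock factor genes, did not pass in any of the 5 exposure comparisons (-0.12 to 0.06), and was lower in the knockout by 0.40 without D3 and 0.36 with D3. In the knockout 13 of 22 clients were lower and 2 higher without D3, where 37.4% and 27.9% of all genes were. With D3 14 were lower and 3 higher, where 44.3% and 24.8% of all genes were. Without D3 HIF1A (0.84) and SRC (0.59) were the 2 higher, and AHR (-0.69) and IRAK1 (-0.51) were among the lower. Of the other heat shock factor genes HSF2 fell with exposure by 0.25 in iR_KOA, 0.34 in iR_WTA and 0.27 in iR_WTA_D3. HSF4 rose by 0.34 in iR_WTA and fell by 0.26 in iR_KOA_D3, and HSBP1 rose by 0.17 in KOA and 0.17 in iR_KOA_D3.

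Correlations over the 10 group means are a description, since groups share background and exposure. HSP90AA1 and HSP90AB1 had a Pearson r of 0.984, HSP90AB1 and AHSA1 0.989, and HSPD1 and HSPE1 0.876, while HSPD1 and FKBP4 had 0.887. CDC37 had 0.500 with HSP90AA1, 0.166 with CHORDC1, 0.193 with FKBP4 and -0.07 with HSPD1. Of all tested genes the pattern of HSP90AA1 was most like that of CACYBP (0.986), followed by HSP90AB1, SUGT1, ALKBH1 and PDCD7 (0.9778). That of HSPD1 was most like LOC101927151 (0.9759), NDEL1, UBXN2A, KIF21A and LSM14A (0.952).

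Genes with 3 heat shock element units in a row in a promoter window, the 4 members among them, can be set beside all genes with a window. Of 48 such tested genes 26 rose with exposure in KOA, or 54.2%, against 18.9% of 9885 genes with any window. The share was 43.8% against 13.3% in iR_KOA, 52.1% against 17.4% in iR_KOA_D3, 45.8% against 11.4% in iR_WTA and 47.9% against 15.5% in iR_WTA_D3. The 4 members, already known to rise, lift the share of the 48. Of the 48, 1 fell in KOA, 2 in iR_KOA, 5 in iR_KOA_D3, 1 in iR_WTA and 6 in iR_WTA_D3. Of 1337 tested genes with a pair, 23.6% rose in KOA, 17.4% in iR_KOA, 21.5% in iR_KOA_D3, 15.3% in iR_WTA and 18.5% in iR_WTA_D3. A part of these letters in the rises was not tested. Of the members without a match, AHSA1 rose in all 5 backgrounds, PTGES3 in 4, HSPE1 in 2 and CDC37 in none.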

How the data were processed

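RNA of A549 cells was measured in 30 libraries. Per the submitters' processing notes, reads were processed with fastp, HISAT2 and HTSeq on GRCh38; the sources used here give no versions, annotation or strand setting, and overlapping or antisense genes cannot be told apart. The authors' deposited table holds 1 FPKM value per gene and library. Columns were mapped by name, and 6 columns matching no sample, named EX_A549 and NC_A549, were not used. The steps between low FPKM values gave whole fragments, within a tolerance of 0.01, for all 21915 genes above 0 in at least 5 libraries, and with them the depth of each library (ratio of highest to lowest 1.125). FPKM does not correct for composition.

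Values were tested as log2(FPKM + 1), which understates changes of low genes, over the 12086 genes reaching 1 FPKM in 3 or more libraries, in 1 fit of 10 groups with limma 3.58.1 (R 4.3.3, mean-variance trend, 20 residual degrees of freedom). P-values are two-sided and adjusted by Benjamini-Hochberg within each of 15 comparisons, with a threshold of 0.05. Ratios were compared by an exact permutation test. The fit was also run on simulated data, with genes changed in 1 group only and 1 fixed spread for all genes. That setting is simpler than these data, so it does not measure error rates in them. Alternatives were another pseudocount, no filter, median-of-ratios and quantile scaling, fits of the compared groups alone, the replicate block and leaving out each replicate.

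The members and lists were chosen with earlier results of these data known. All members are named; of each other list, up to 4 genes with the largest absolute difference among those past the threshold in an exposure or genotype comparison, and for HSP90AA1 and HSPD1 the 5 genes most alike by Pearson correlation of group means. A gene named under 1 background may be given in others. Since no label tells whether replicates came from separate cultures, the p-values cover only the variation among these libraries, possibly technical. Several comparisons share unexposed groups. Same-numbered libraries deviated together in every pair (r over 0.1) only for exposure in iR_KOA_D3, where the replicate block changed no count of called members.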

Additional observations from a re-analysis of the deposited data

Results flagged for a closer look

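In 4 cases the exposure effect on a member differed between backgrounds by the interaction term of the limma fit, adjusted over all 12086 genes. HSPD1 rose less with iR in the knockout, with a difference of the rises of -0.33 (adjusted p = 0.0127). CHORDC1 rose more with D3, by 0.75 (adjusted p = 0.00649) in the knockout and 0.66 (adjusted p = 0.0282) in wild type. HSP90AA1 rose more with D3 in wild type, by 0.49 (adjusted p = 0.017). The first lost its call without KOA exposed replicate 1 (-0.29, adjusted p = 0.051) and with quantile normalization (-0.18, adjusted p = 0.195). The CHORDC1 value in wild type lost its call in the fit of the compared groups alone (adjusted p = 0.142), with no filter on low values (adjusted p = 0.0658) and without any of 7 libraries, with adjusted p of 0.0525 to 0.107. The HSP90AA1 value did so without iR_WTA exposed replicate 3 (0.42, adjusted p = 0.061) and without iR_WTA unexposed replicate 2 (0.46, adjusted p = 0.057). With the replicate block HSP90AA1 also passed for D3 in the knockout (0.36, adjusted p = 0.018). The CHORDC1 value in the knockout passed under all alternatives run.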

How the results depend on the processing

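The counts of members called with exposure, with the knockout and with D3 stayed within 1.5 times of those reported under every alternative run. With the fit of the compared groups alone, 2131 genes were called for exposure in iR_KOA, 906 higher and 1225 lower. The fit of all 10 groups called 1578 higher and 2694 lower. For the genotype interactions the compared groups alone gave 17 genes against 65 (without D3) and 106 against 288 (with D3). For the D3 interactions they gave 158 against 500 in iR_KOA and 52 against 202 in iR_WTA. A pseudocount of 0.1 gave 40 for genotype without D3. Members called for iR in KOA were 5 with the compared groups alone and 2 with quantile normalization; members called for exposure by D3 in iR_WTA were 1 with the compared groups alone and 1 with no filter. The replicate block raised members called from 1 to 3 for exposure by iR and from 1 to 2 for exposure by D3 in iR_KOA, and changed no other count of members by over 1.5 times; outside iR_KOA_D3 the samples share only a number. Reversals of sign concerned values that had not passed: CDC37 in iR_KOA (0.0251 after median-of-ratios scaling and 0.0257 after quantile normalization) and HSPD1 for exposure by D3 in iR_KOA (-0.0079 with quantile normalization).

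With 1 library left out, the CDC37 exposure difference ran from -0.0038 to 0.0533 (KOA), -0.0288 to 0.0119 (iR_KOA) and -0.0471 to 0.0706 (iR_WTA_D3), HSPE1 from -0.2335 to 0.1335 (iR_KOA) and -0.0671 to 0.1863 (iR_WTA), FKBP4 for the knockout with D3 from -0.0032 to 0.0518, HSP90AA1 for iR from -0.0097 to 0.1136, and the log2 ratio of HSPD1 to HSPE1 in iR_KOA_D3 from -0.0165 to 0.0499. Members called ran from 1 to 3 for iR, 0 to 5 for exposure by iR, 1 to 4 for exposure by D3 in iR_KOA and 0 to 2 in iR_WTA. Genes called ran from 30 to 74 (genotype without D3), 170 to 504 (with D3), 245 to 910 (exposure by D3 in iR_KOA) and 88 to 506 (exposure by D3 in iR_WTA). The libraries behind these extremes include iR_KOA exposed replicate 1 and iR_KOA unexposed replicate 3. Counting error was small for the members, while the spread between libraries of a group limited HSPE1.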
